A study of Homo sapiens with 17 samples.

Results

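The 76 genes described here encode autophagy and lysosome proteins. They were taken by gene symbol from a table of 19141 genes counted in YB5 cells, a human colon cancer line derived from SW48 that carries a silenced GFP gene under a viral promoter. The symbols were those starting with ATG and a number (autophagy-related genes), ATP6V0 or ATP6V1 (the vacuolar proton pump, V-ATPase), MAP1LC3 and GABARAP (the ATG8 family), LAMP and a number (lysosome-associated membrane proteins), and CTS and 1 letter (cathepsins). ULK1, BECN1, SQSTM1, WIPI1, WIPI2, TFEB, TFE3, MITF and MCOLN1 completed the list. By role, 30 members were autophagy genes, 23 V-ATPase genes, 15 cathepsins, 5 genes of the lysosome membrane and 3 transcription factors. One of the 23, ATP6V1FNB, shares the symbol prefix of the pump but is a neighbor of ATP6V1F and not a subunit.

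YB5 cells received 250 nM toyocamycin, an adenosine analog made by Streptomyces bacteria, or the vehicle DMSO. Polyadenylated RNA was sequenced in 8 DMSO and 9 toyocamycin libraries. Each arm had 2 libraries for 2 h, 3 for 72 h and a single one for 24 h and for 48 h, while 10 h had 1 on DMSO and 2 on toyocamycin. The last time is 72 h in the sample labels, which are followed here. The methods text names a later hour for it. All groups come from a single cell line, and the labels call the replicates biological without saying which cultures they came from.

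Autophagy encloses cytoplasm in a double membrane, the autophagosome, and delivers it to the lysosome. The ULK1 kinase complex starts the process, a lipid kinase complex with BECN1 and ATG14 marks the site, ATG9 and ATG2 proteins supply membrane lipids, and an ATG12-ATG5-ATG16L1 complex attaches ATG8 proteins such as LC3 to the growing membrane. In the lysosome, the V-ATPase pumps protons through its membrane sector V0, driven by ATP hydrolysis in its cytosolic sector V1. The acid pH activates cathepsins, which are proteases. TFEB, TFE3 and MITF are related transcription factors that bind a GTCACGTG element near the start of many lysosomal genes.

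That element, searched as GTCACGTG on both strands of the 250 bases before the RefSeq start of each gene (GRCh38.p14), was present in 9 of the 59 members with a RefSeq promoter. That is 15.3%, against 2.66% of all 27305 genes with a promoter and 4.51% of the 11589 of them that were tested for expression. The shorter core CACGTG, which every full match also holds, was present in 18.6% of members and in 10.8% of tested genes. The windows around the matches are shown because the members that hold them include genes called in each direction below. Each is written 5′ to 3′ on the strand of its gene, with the element in capitals, and 2 of them hold a second match. In LAMP1 this is a separate copy, and in ATP6V1G1 it overlaps the first match and is read on the other strand.

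ATP6V0B, chr1:43974885-43974924, plus strand: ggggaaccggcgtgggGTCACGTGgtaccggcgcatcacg
ATP6V1G1, chr9:114587693-114587732, plus strand: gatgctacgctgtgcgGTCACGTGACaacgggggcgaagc
ATP6V0D1, chr16:67481195-67481234, minus strand: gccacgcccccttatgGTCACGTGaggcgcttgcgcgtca
ATG3, chr3:112561963-112561998, minus strand: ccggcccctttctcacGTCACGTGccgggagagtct
ATG14, chr14:55411831-55411867, minus strand: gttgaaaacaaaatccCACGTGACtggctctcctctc
LAMP1, chr13:113297029-113297068, plus strand: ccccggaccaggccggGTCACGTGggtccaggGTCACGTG
MCOLN1, chr19:7522565-7522604, plus strand: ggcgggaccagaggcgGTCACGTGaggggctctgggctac
CTSA, chr20:45891275-45891314, plus strand: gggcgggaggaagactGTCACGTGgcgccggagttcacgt
CTSD, chr11:1763951-1763990, minus strand: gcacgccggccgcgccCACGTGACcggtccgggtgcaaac

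A match in these windows is a description of letters and not a binding site. At 72 h, 4 of these 9 genes were called higher on toyocamycin (ATP6V1G1, LAMP1, ATG14, ATP6V0D1), 4 lower (ATP6V0B, MCOLN1, CTSA, CTSD) and ATG3 neither, by the test described next. Both counts are near the shares of all genes, of which 47.0% were called higher and 41.9% lower.

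The gene counts of a library summed to 8735465 at the lowest, in replicate 2 of toyocamycin at 10 h, and to 22121364 at the highest. Levels are given as CPM, counts divided by the TMM-scaled library total in units of 1000000 counts. TMM takes most genes as unmoved, and a difference is therefore relative to the other genes of a library. A member was called higher or lower at a Benjamini-Hochberg adjusted p under 0.1 in edgeR's quasi-likelihood test, adjusted over all genes. A fit of 14 libraries, without those of 10 h, tested 64 members among 14491 genes, and the 10 h result came from all 17 libraries, with 71 members among 16521 genes. At 24 and 48 h each arm was a single library, so the fitted change is given there without a test. The 12 members outside the first fit had at most 15 counts in 16 libraries. In replicate 2 of toyocamycin at 10 h the same members had 4 to 17 counts, and for 10 of the 12 their highest CPM was in that library, which stands apart in this way. Annotated genes overlap some members on the same strand (ATP6V0C, GABARAP, ATG9A, CTSD and MCOLN1) or the other strand (among them MAP1LC3B, ATG12, ATG14, BECN1, SQSTM1, ATG9B, CTSA and CTSZ), and reads in such overlaps may be missing from or shared with their counts. The epithelial markers EPCAM, CDH1, KRT8, KRT18 and KRT19 were expressed, while KRT20 had at most 7 counts in a library and CDX1 was at 0 in all libraries but a toyocamycin library of 10 h, with 10 counts. Markers of leukocytes and macrophages summed to 0.0929 to 0.591 CPM on DMSO and 0.433 to 24.8 CPM on toyocamycin, and at 72 h the toyocamycin mean was 15.65 CPM for CD14 and 0.239 CPM for PTPRC.

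The 3 large groups differed in their counts of calls on toyocamycin. Most expressed cathepsins were higher than on DMSO at 10 h and lower at 72 h. Of the autophagy genes, 13 of 30 were called lower, 4 higher and 13 neither at 10 h, and 13 of 29 lower and 13 higher at 72 h. The labels put the 10 h DMSO library in batch 2 and replicate 1 of toyocamycin in batch 1. With a batch term, 12 autophagy genes were lower and 8 higher at 10 h. DESeq2 size factors gave 9 and 7, and library size alone 17 and 4. V-ATPase genes had calls in both directions at 10 and 72 h. At 2 h, 4 members were called lower and 0 higher, where 8.42% of all genes were called lower and 0.518% higher. At 10 h, 21 of 71 members were called lower and 18 higher, which is 29.6% and 25.4% against 24.4% and 20.4% of all genes. At 72 h, 31 of 64 were called lower and 26 higher, or 48.4% and 40.6% against 41.9% and 47.0%. As a whole, then, the 76 genes changed about as often as other genes, and the differences lie between the groups.

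**Figure D1:**
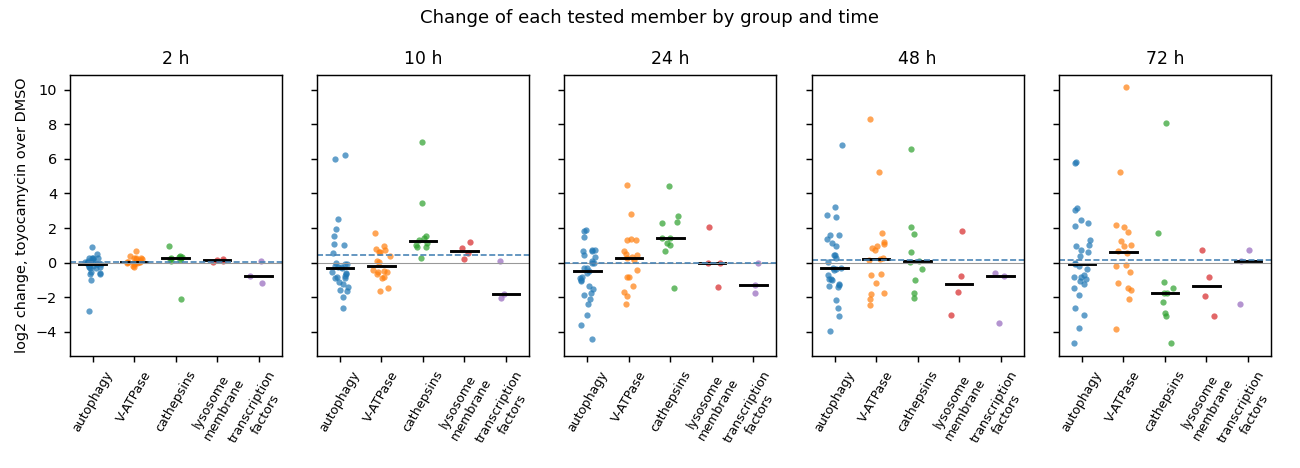
Log2 change of toyocamycin over DMSO (y axis) of the 64 members of the 14-library fit, in 5 groups (x axis) at 5 times (panels). Each point is 1 gene, black bars are group medians, and the dashed line is the median of all genes tested. The cathepsin bar lies above the dashed line at 10 and 24 h and far below it at 72 h.

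Fewer cells and less RNA per cell cannot be told apart in these bulk libraries, and the scaling sets where no change lies. With TMM, the median log2 change of all genes was 0.42 (10 h), 0.00 (24 h), 0.16 (48 h) and 0.18 (72 h). With library size alone it was -0.04, -0.91, -0.41 and -0.42, and with the 13 genes of the mitochondrial genome as the reference it was -0.70, -2.16, -1.64 and -0.89. These 13 took 0.917% to 3.47% of the counts on DMSO and up to 6.55% on toyocamycin. The TMM median of 10 h also depended on which genes were tested. It was 0.00 over 14519 genes without replicate 2 of toyocamycin, and -0.08 with at least 10 counts in every library. A change of scaling shifts the log2 changes of all genes at a time by nearly the same amount. Group medians of 10 h are over more genes than those of the other times. The order of the 3 large groups' medians at 10, 24, 48 and 72 h was the same under the 4 scalings tried, but could hardly have differed. The same holds for a group median minus the median of all genes, so these values do not test the group differences. At 24 h the cathepsin median minus the median of all genes was 1.44 with TMM, 1.5 with DESeq2 size factors, 1.33 with library size and 1.32 with mitochondrial genes. The same difference at 72 h was -1.93 with TMM and between -1.96 and -1.93 with the others. The autophagy median was below that of all genes at 24 h (-0.49 with TMM, -0.61 to -0.43 with the others), and the V-ATPase median was above it at 72 h (0.45, and 0.43 to 0.45). That V-ATPase median is raised by ATP6V1FNB (5.22), which is not a subunit, and by ATP6V0C (10.14), whose DMSO counts are not its level. With TMM the 72 h median was -0.002 for the 6 broadly expressed V0 subunits and 0.415 for the 8 of V1, against 0.18 for all genes.

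**Figure D2:**
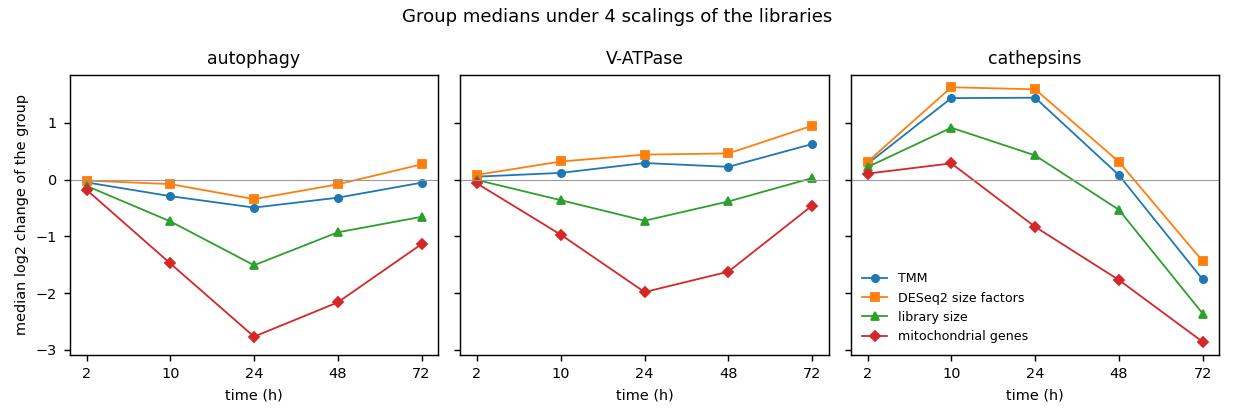
Median log2 change of the autophagy, V-ATPase and cathepsin genes tested (y axis) against time in hours (x axis), with the libraries scaled in 4 ways. The lines move up or down together. In each scaling the cathepsin median is the highest of the 3 at 10 and 24 h and the lowest at 72 h. The medians are over 30 autophagy, 21 V-ATPase and 13 cathepsin genes at 10 h, and over 29, 18 and 10 at the other times. The genes added at 10 h had at most 17 counts in a library. Without replicate 2 of toyocamycin, the 10 h TMM medians were -0.387 (29 autophagy genes), 0.125 (19 V-ATPase genes) and 1.359 (10 cathepsins).

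The transcription factors moved apart. TFEB (chr6:41683978-41736259, minus strand), the best known activator of lysosomal genes, was among the 4 members lower at 2 h. Its level was 12.5 and 8.58 CPM in the DMSO libraries of 2 h and 5.47 and 3.96 CPM in the toyocamycin libraries, without overlap. This was a log2 change of -1.16 ± 0.25 (SE, n = 2 per arm; edgeR adjusted p = 0.00953), and the call was lost without replicate 2 of toyocamycin (adjusted p = 0.122). TFEB stayed low at later times. It stood at 2.14 and 2.21 CPM in the toyocamycin libraries of 10 h against 9.15 CPM on DMSO (-2.07 ± 0.33, edgeR adjusted p = 0.00017), at 3.16 against 10.7 CPM at 24 h and at 2.12 against 23.9 CPM at 48 h. The 3 toyocamycin libraries of 72 h held 2.65, 2.41 and 2.52 CPM and the DMSO libraries 16.1, 13.5 and 11.2 CPM (-2.39 ± 0.24, edgeR adjusted p = 1.35e-07).

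MITF was lower at 10 h, with 2.93 and 2.76 CPM against 10.2 CPM (-1.84 ± 0.34, edgeR adjusted p = 0.000517). By 72 h it was higher, with 6.68, 6.49 and 4.43 CPM against 3.77, 3.67 and 3.18 CPM (0.76 ± 0.23, edgeR adjusted p = 0.0062). Its DMSO level had itself gone from 10.2 CPM at 10 h to that range, and the sign at 72 h turned with mitochondrial scaling (-0.34). TFE3 was not called at any of the 3 tested times, with log2 changes of 0.10 at 2 h, 0.08 at 10 h and 0.09 at 72 h. Its 72 h libraries overlapped, at 41.6 to 48.0 CPM on toyocamycin and 39.4 to 48.1 CPM on DMSO, although DESeq2 size factors gave a called rise of 0.41 and mitochondrial scaling a called fall to -1.02.

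Autophagy genes made up the other 3 falls at 2 h. ATG16L1 (chr2:233210051-233295674, plus strand), which directs ATG8 lipidation to the membrane, was at 46.3 and 43.3 CPM on DMSO and 20.8 and 23.8 CPM on toyocamycin (-1.01 ± 0.15, edgeR adjusted p = 0.000385). It was the one 2 h call that held without each library in turn (adjusted p up to 0.00918). ATG14, the lipid kinase subunit that sends the complex to autophagy, fell from 29.4 and 29.9 CPM to 18.3 and 19.9 CPM (-0.63 ± 0.16, edgeR adjusted p = 0.0261), a call lost without replicate 1 of toyocamycin (adjusted p = 0.174). ATG101, a partner of ATG13 in the ULK1 complex, went from 40.4 and 40.9 CPM to 26.4 and 28.1 CPM (-0.58 ± 0.17, edgeR adjusted p = 0.0585), and each library left out ended that call (adjusted p 0.12 to 0.246). No member was called higher at 2 h by edgeR or by DESeq2, and 0 had an unadjusted p under 0.05 on that side.

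The labels put replicate 1 of 2 h in batch 1 and replicate 2 in batch 2. With the replicate block, in the 4 libraries of 2 h alone, 6 of 58 members were called lower and 6 higher, where 18.7% of all genes were lower and 8.72% higher. The falls were the 4 above with SQSTM1 (-0.31) and MITF (-0.78). The rises were small and were those of ATG4A (0.51), CTSA (0.37), ATP6V1F (0.36), CTSD (0.30), CTSZ (0.28) and ATP6V0E2 (0.25).

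The 3 early falls in autophagy genes had turned by 72 h. ATG16L1 was lower still at 10 h, with 14.4 and 9.73 CPM against 31.9 CPM (-1.39 ± 0.23, edgeR adjusted p = 0.000219). It was within 2-fold at 24 and 48 h and was at 102, 95.0 and 92.4 CPM against 63.6, 65.5 and 66.0 CPM at 72 h (0.60 ± 0.12, edgeR adjusted p = 0.000172), a rise that library size alone put at 0.00. ATG14 was lower at 10 h, at 23.1 and 26.0 CPM against 42.1 CPM (-0.78 ± 0.21, edgeR adjusted p = 0.00866). Its 72 h libraries were at 52.9, 48.0 and 47.0 CPM against 28.9, 28.3 and 35.4 CPM (0.71 ± 0.13, edgeR adjusted p = 0.000131). ATG101 reached 196, 174 and 180 CPM at 72 h against 50.7, 43.3 and 34.5 CPM (2.13 ± 0.14, edgeR adjusted p = 1.34e-09). The change at 72 h differed from that at 2 h for 28 of 64 members on the lower side and 25 on the higher side (38.1% and 38.0% of all genes). It did so for all 3 of these genes, by 1.61, 1.34 and 2.71 on the log2 scale, with edgeR adjusted p of 1.36e-06, 3.44e-05 and 3.5e-08.

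The starting kinase and the main lipid carriers fell and stayed low, unlike ATG101 and ATG13, partners of ULK1 that were called higher at 72 h. The ATG13 rise was small (0.38 ± 0.12, edgeR adjusted p = 0.00918), and its log2 change ran from -0.714 to 0.705 over the alternative settings. ATG2A, which passes lipids to the growing membrane, was at 39.8 and 26.6 CPM against 99.3 CPM at 10 h and at 4.61 against 99.0 CPM at 24 h. Its 72 h libraries held 1.67, 3.34 and 3.48 CPM on toyocamycin and 85.2, 79.8 and 54.2 CPM on DMSO, without overlap (-4.64 ± 0.28, edgeR adjusted p = 4.09e-10). ATG9A, the scramblase of the vesicles that seed the membrane, was at 3.34, 4.08 and 3.91 CPM against 55.1, 55.8 and 47.5 CPM at 72 h (-3.77 ± 0.16, edgeR adjusted p = 9.2e-12). Its paralog ATG9B, at a low level, moved the other way, from 1.88, 2.37 and 2.49 CPM on DMSO to 10.5, 9.54 and 12.7 CPM (2.31 ± 0.22, edgeR adjusted p = 9.56e-08). ULK1 was at 14.2 and 8.95 CPM against 47.1 CPM at 10 h (-2.01 ± 0.35, edgeR adjusted p = 0.000361) and at 3.15, 5.93 and 5.21 CPM against 42.7, 42.5 and 33.0 CPM at 72 h (-3.01 ± 0.26, edgeR adjusted p = 2.05e-08). ATG2B, the paralog of ATG2A, was lower at 10 h (-1.63) and close to DMSO at 72 h (-0.36, edgeR adjusted p = 0.0395).

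BECN1, the core subunit of the lipid kinase complex, was higher at 10 h and lower at 72 h. Both toyocamycin libraries of 10 h (61.0 and 61.3 CPM) were above the DMSO library (30.7 CPM), a change of 0.996 ± 0.20 (edgeR adjusted p = 0.00124). The 72 h libraries were at 19.2, 20.9 and 21.3 CPM against 36.2, 36.6 and 36.7 CPM (-0.80 ± 0.13, edgeR adjusted p = 2.23e-05).

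Of the conjugation enzymes, ATG7 (-1.06) and ATG10 (-1.44) were lower at 72 h and ATG3 (-0.05) was not called. ATG5, a part of the ATG12-ATG5-ATG16L1 complex, was higher (0.95). ATG12, the ubiquitin-like partner of ATG5, was not called at 10 h (-0.22) and reached 158, 149 and 125 CPM at 72 h against 15.1, 15.1 and 19.9 CPM, 8.84-fold higher (3.14 ± 0.17, edgeR adjusted p = 8.31e-11). MAP1LC3B (chr16:87383953-87404779, plus strand), which encodes the LC3B protein bound to autophagosomes, was with ATG9B 1 of 2 autophagy genes called higher at both 10 and 72 h. It was at 88.0 and 58.5 CPM against 34.9 CPM at 10 h (1.07 ± 0.27, edgeR adjusted p = 0.00575), at 139 against 38.2 CPM at 24 h and at 177 against 28.7 CPM at 48 h. In the 72 h libraries it was at 251, 221 and 209 CPM against 27.6, 25.1 and 33.1 CPM (3.02 ± 0.14, edgeR adjusted p = 2.33e-11). MAP1LC3B2, a near-identical copy, held at most 32 counts in any library, and reads of the pair may have been divided uncertainly. GABARAPL1 was lower at 10 h (-0.88, edgeR adjusted p = 0.0324, and 0.129 without replicate 1 of toyocamycin). The 72 h libraries were at 12.2, 11.1 and 10.5 CPM against 5.45, 5.29 and 6.31 CPM (1.02 ± 0.20, edgeR adjusted p = 0.000205), within the range of 4.09 to 13.9 CPM over all 8 DMSO libraries.

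In all, 5 of the 6 tested ATG8 genes were higher at 72 h, where 47.0% of all genes were, and GABARAPL2 was lower (-1.21). Of these 5, MAP1LC3B2, MAP1LC3A and GABARAP had at most 32 counts in a library. MAP1LC3A and GABARAP were at most 2 counts in the 72 h DMSO libraries, and their toyocamycin levels, of 0.869 to 2.36 CPM, were at least 8.89-fold and 14.5-fold higher than 3 counts per library. A same-strand annotated gene covers GABARAP, and reads shared by 2 genes are not counted by the authors' method, so its count is not a level of the gene. Of the other 23 autophagy genes, 12 were lower, 8 higher and 3 neither at 72 h, where 41.9% of all genes were lower and 47.0% higher. SQSTM1, the receptor that carries ubiquitinated cargo into autophagosomes, was 1 of those 3. It was lower at 10 h, with 90.0 and 68.3 CPM against 139 CPM (-0.81 ± 0.24, edgeR adjusted p = 0.0148), and at 54.0 against 156 CPM at 24 h. By 72 h SQSTM1 was at 155, 147 and 160 CPM, inside the DMSO range of 137 to 182 CPM (-0.03 ± 0.14, edgeR adjusted p = 0.827).

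**Figure D3:**
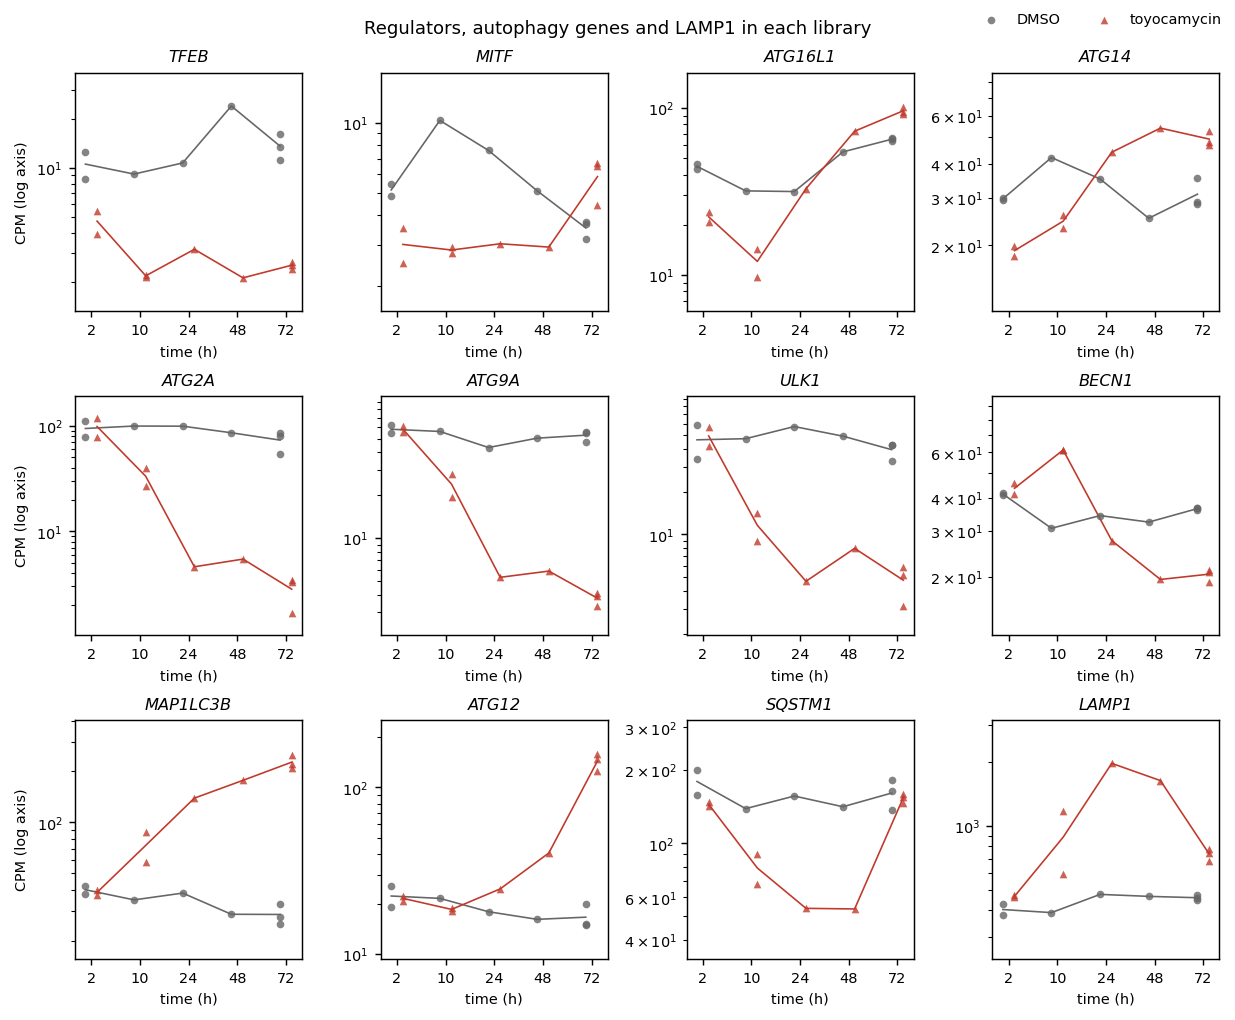
CPM on a log axis against time in hours for 12 members, in DMSO (gray circles) and toyocamycin (red triangles). Each point is 1 library and lines join the group means. TFEB, ATG2A, ATG9A and ULK1 stay below DMSO from 10 h on, MAP1LC3B climbs at each later time, and SQSTM1 dips and returns to the DMSO range at 72 h.

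V-ATPase genes were called in both directions in both sectors. At 10 h, 6 of 21 tested genes were called lower and 4 higher, near the 24.4% and 20.4% of all genes. At 72 h, 6 of 18 were lower, 10 higher and 2 neither, against 41.9% and 47.0% of all genes. The 10 include ATP6V1FNB and ATP6V0C, whose counts are limited as described below. In the V0 sector, ATP6V0A1, an isoform of the largest subunit, was at 10.9, 8.99 and 8.08 CPM at 72 h against 38.6, 40.8 and 41.8 CPM (-2.09 ± 0.16, edgeR adjusted p = 4.14e-09). The small subunit ATP6V0E2 had been higher at 10 h, with 211 and 134 CPM against 102 CPM (0.76 ± 0.28, edgeR adjusted p = 0.0413, and 0.151 without replicate 1 of toyocamycin). By 72 h ATP6V0E2 had reached 5.70, 6.58 and 8.52 CPM against 106, 108 and 94.3 CPM, 14.4-fold lower (-3.85 ± 0.16, edgeR adjusted p = 6.21e-12). Its paralog ATP6V0E1 was higher at that time (0.70). ATP6V0D1, the stalk subunit, was at 85.6, 90.6 and 91.5 CPM against 62.4, 69.4 and 54.3 CPM (0.56 ± 0.13, edgeR adjusted p = 0.000684), with the sign turned by library size alone (-0.04).

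The proton-binding ring subunit ATP6V0C (chr16:2513952-2520218, plus strand) had 3 to 8 counts in the DMSO libraries. It had 103 counts in the toyocamycin library of 24 h, 759 at 48 h, and 1469, 2690 and 2149 at 72 h, or 144, 249 and 187 CPM (10.14 ± 0.30, edgeR adjusted p = 5.42e-13). A pair of annotated genes overlaps it on the same strand, so most reads of the gene itself may not have been counted, and the baseline of a few counts is not a level of the subunit. ATP6V1FNB likewise rose from 2.73, 2.69 and 2.58 CPM to 78.6, 101 and 112 CPM (5.22 ± 0.25, edgeR adjusted p = 2.7e-11). It starts 483 bases after the end of ATP6V1F on the same strand, and ATP6V1F itself fell (-1.17).

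In the V1 sector, 2 of 8 broadly expressed subunits were lower and 4 higher at 72 h, against 41.9% and 47.0% of all genes. ATP6V1B2, a subunit of the catalytic head, was lower early and late, with 37.8 and 42.0 CPM against 124 CPM at 10 h (-1.63 ± 0.24, edgeR adjusted p = 7.17e-05) and 33.4, 28.9 and 29.1 CPM against 85.3, 91.3 and 101 CPM at 72 h (-1.57 ± 0.15, edgeR adjusted p = 1.1e-07). ATP6V1A, its catalytic partner, was lower at 10 h only by the test (-0.82 ± 0.26, edgeR adjusted p = 0.0232). At 72 h its libraries overlapped, at 39.6, 35.5 and 34.6 CPM against 37.0, 35.6 and 53.9 CPM (-0.17 ± 0.16, edgeR adjusted p = 0.314). The stalk subunits ATP6V1G1 (2.06), ATP6V1E1 (1.77) and ATP6V1D (1.26) were called higher at 72 h. ATP6V1E2, an isoform known mainly from testis, was lower at 10 h (-0.90 ± 0.31, edgeR adjusted p = 0.033, and 0.128 without replicate 2 of toyocamycin). Its level at 72 h was 17.4, 17.4 and 22.3 CPM against 4.41, 4.18 and 4.38 CPM (2.17 ± 0.21, edgeR adjusted p = 7.47e-08).

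**Figure D4:**
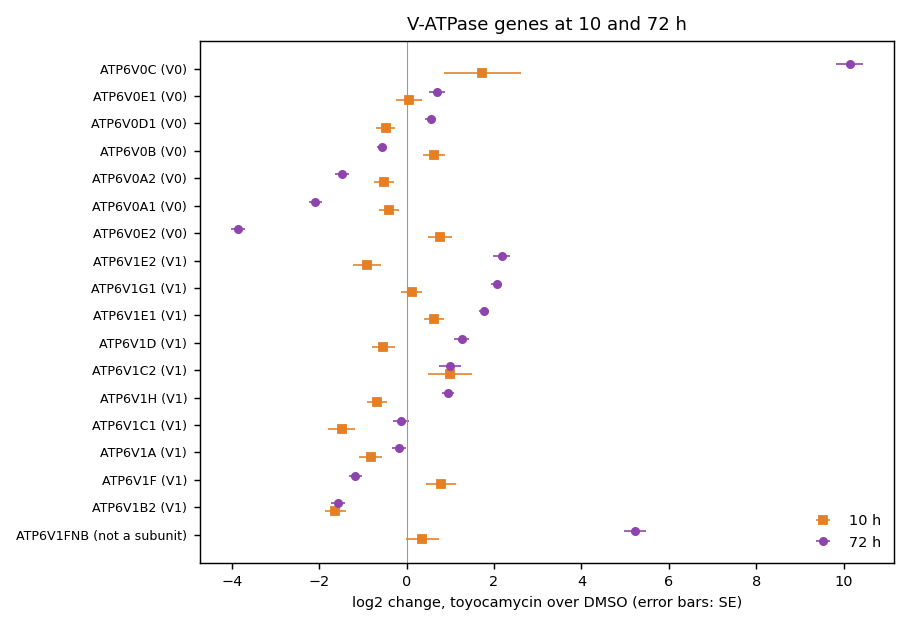
Log2 change of toyocamycin over DMSO (x axis, bars are SE) at 10 h (orange squares) and 72 h (purple circles) for the 18 genes with a V-ATPase symbol tested in both fits, by sector. Rises and falls occur in V0 and in V1, and ATP6V0E2 moves from above 0 at 10 h to -3.85 at 72 h.

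Of the lysosome membrane genes, LAMP1 alone was higher at 72 h. LAMP1, the main glycoprotein of the lysosome coat, was at 427 and 378 CPM on DMSO and 470 and 459 CPM on toyocamycin at 2 h. It was at 1175 and 593 CPM against 389 CPM at 10 h (1.18 ± 0.32, edgeR adjusted p = 0.00878), 1974 against 475 CPM at 24 h and 1636 against 465 CPM at 48 h. By 72 h LAMP1 was at 782, 746 and 686 CPM against 458, 471 and 445 CPM (0.72 ± 0.12, edgeR adjusted p = 3.8e-05), and mitochondrial scaling turned that sign (-0.36). LAMP2, whose LAMP2A form imports proteins in chaperone-mediated autophagy, was at 21.7, 22.4 and 19.5 CPM at 72 h against 77.0, 71.1 and 94.8 CPM (-1.90 ± 0.17, edgeR adjusted p = 3.93e-08). LAMP3 was higher at 10 h (27.0 and 26.8 against 15.1 CPM; 0.83 ± 0.24, edgeR adjusted p = 0.0116). It was at 1.47, 1.57 and 1.30 CPM at 72 h against 12.1, 11.2 and 14.6 CPM (-3.08 ± 0.21, edgeR adjusted p = 1.5e-09). MCOLN1, the lysosomal calcium channel, was at 7.86, 10.6 and 10.4 CPM at 72 h against 19.7, 19.1 and 14.7 CPM (-0.85 ± 0.18, edgeR adjusted p = 0.000302). LAMP5 had 0 to 6 counts and was not tested.

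Most expressed cathepsins turned from higher to lower. At 2 h none was called, although 9 of 10 changes were above 0 (median 0.28, with 0 at an unadjusted p under 0.05). At 10 h, 8 of 13 tested cathepsins were called higher and 0 lower, with 0 on the lower side at an unadjusted p under 0.05, where 20.4% of all genes were called higher. At 24 h, 8 of 10 were past 2-fold higher and 1 past 2-fold lower, against 29.7% and 27.8% of all genes, with no test. The 8 include CTSS (0 counts on DMSO and 2 on toyocamycin) and CTSW (2 and 6 counts). Among the 8 cathepsins with an average log2 CPM of 2 or more, a limit applied after the data had been seen that leaves out both, 7 were called higher at 10 h and 6 were past 2-fold higher at 24 h. At 48 h, 3 of the 10 were past 2-fold in each direction, against 38.1% of all genes higher and 29.9% lower. CTSS was among the higher ones, with 1 count on DMSO and 2 on toyocamycin. At 72 h, 8 of 10 were called lower and 1 higher, against 41.9% and 47.0% of all genes. The 8 that fell were CTSA, CTSB, CTSC, CTSD, CTSH, CTSO, CTSV and CTSZ, and 7 of them, without CTSO, had risen at 10 h. CTSH, CTSV, CTSW and CTSZ, like the other members given without a place in the naming rule, were named after their values were seen.

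CTSB encodes cathepsin B, a cysteine protease. It was at 1348 and 1317 CPM on DMSO and 1442 and 1642 CPM on toyocamycin at 2 h, and at 3076 and 2190 CPM against 1052 CPM at 10 h (1.32 ± 0.25, edgeR adjusted p = 0.000763). It reached 4207 against 864 CPM at 24 h and was at 2044 against 1346 CPM at 48 h. At 72 h it was at 589, 596 and 558 CPM against 1245, 1361 and 1286 CPM (-1.13 ± 0.12, edgeR adjusted p = 3.78e-07), below every DMSO library of the series.

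CTSD (chr11:1752752-1764573, minus strand), the aspartic protease whose promoter window is printed above, was at 684 and 329.6 CPM against 177 CPM at 10 h (1.52 ± 0.35, edgeR adjusted p = 0.00346). At 24 h it was at 939.7 against 145 CPM, 6.56-fold higher, and at 48 h at 660.0 against 159 CPM. At 72 h it was at 201, 194 and 189 CPM against 616, 585 and 460.5 CPM (-1.48 ± 0.14, edgeR adjusted p = 8.14e-08). The DMSO libraries of 2 to 48 h held 145 to 275 CPM, so the toyocamycin libraries of 72 h were inside that earlier range and it was the DMSO level of 72 h that stood above it.

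CTSC, which activates serine proteases by removing dipeptides, had the fall at 72 h that was largest relative to its SE among the cathepsins. It was at 92.7 and 87.4 CPM against 41.2 CPM at 10 h (1.13 ± 0.21, edgeR adjusted p = 0.00065) and had passed below DMSO by 48 h, at 20.5 against 42.1 CPM. The 72 h libraries held 5.70, 5.47 and 5.56 CPM against 47.0, 46.0 and 51.0 CPM, 8.41-fold lower (-3.07 ± 0.15, edgeR adjusted p = 2.56e-11).

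CTSA, or protective protein, also stabilizes lysosomal sialidase and beta-galactosidase. Its 2 toyocamycin libraries of 10 h differed, at 299 and 128 CPM against 104 CPM (1.04 ± 0.38, edgeR adjusted p = 0.0424), and without replicate 1 the change was 0.30 (adjusted p = 0.323). At 72 h it was at 12.2, 13.9 and 15.7 CPM against 118, 113 and 86.2 CPM (-2.89 ± 0.17, edgeR adjusted p = 2.23e-10). CTSO did not share the early rise. It was at 17.7 and 20.3 CPM against 15.7 CPM at 10 h (0.28, not called), 5.85 against 16.1 CPM at 24 h, and 0.197, 0.0927 and 0.434 CPM at 72 h against 6.49, 5.85 and 6.95 CPM, 24.9-fold lower (-4.64 ± 0.36, edgeR adjusted p = 5.61e-09).

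CTSW was the cathepsin called higher at 72 h. It had 1 count in each DMSO library of that time and 12.7, 15.7 and 13.6 CPM on toyocamycin, at least 101-fold higher than 3 counts per library. The gene is known from cytotoxic lymphocytes, and FIBP overlaps it on the other strand. CTSS was near 0 counts in most libraries and was not called. CTSE, CTSF, CTSG, CTSK and CTSL were outside the 14-library fit, and CTSL had at most 7 counts in any library.

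**Figure D5:**
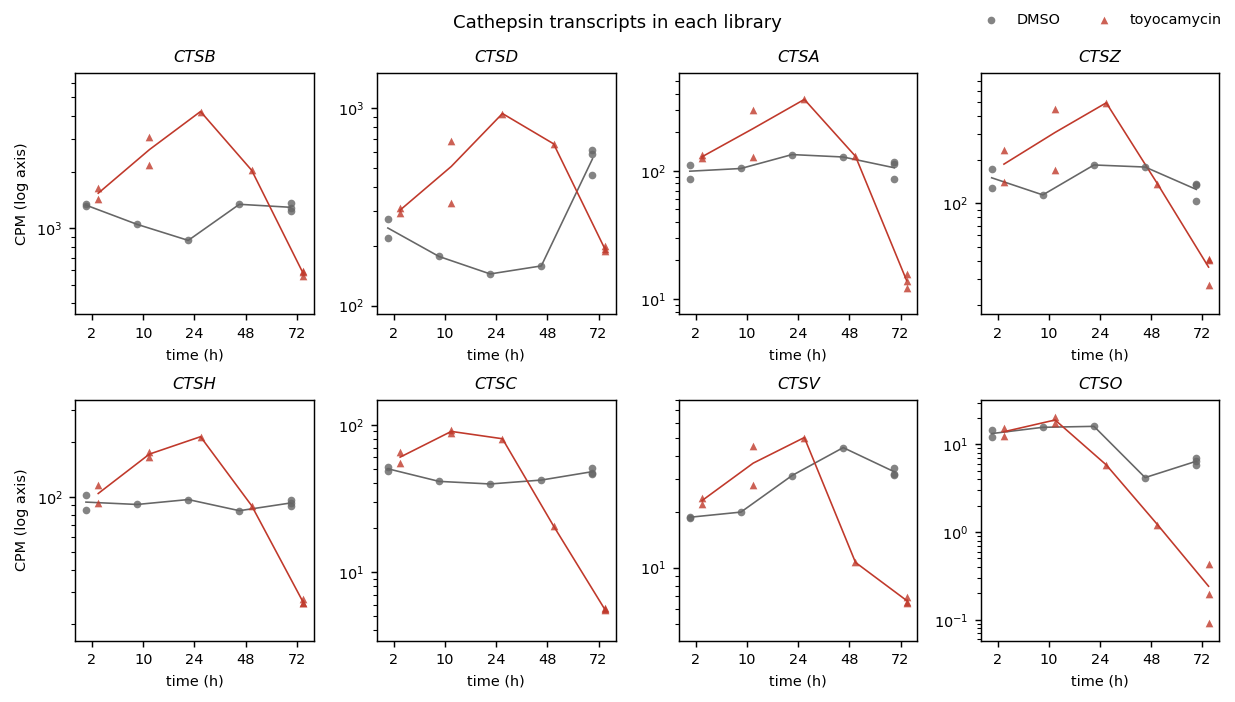
CPM on a log axis against time in hours for 8 cathepsins, in DMSO (gray circles) and toyocamycin (red triangles). Each point is 1 library and lines join the group means. At 72 h all 3 toyocamycin libraries of each gene lie below the 3 DMSO libraries, and CTSB and CTSD peak at 24 h.

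The 72 h fall of 8 cathepsins was called in each other setting that tested all of them. The 10 h rise depended more on the setting. Of the 8 cathepsins with an average log2 CPM of 2 or more, 7 were called higher without replicate 2 of toyocamycin, where 24.0% of all genes were. Without replicate 1, where both arms come from batch 2, 5 were called (CTSB, CTSC, CTSD, CTSH and CTSV) against 39.1% of all genes, and CTSA and CTSZ (0.58, adjusted p = 0.141) lost their calls. With library size alone 4 were called, where 1872 of all 16521 genes were, and with mitochondrial scaling 0, where 503 were. Over all 13 tested the count without replicate 1 was 9, which adds CTSF, CTSL, CTSS and CTSW, genes with 7 to 17 counts in replicate 2. Of the markers of colon epithelium, 8 of 10 tested were higher at 10 h, where 20.4% of all genes were. At 72 h, 7 of 9 were lower and 2 (CDX2 and LGALS4) higher, where 41.9% and 47.0% of all genes were. KRT8, a keratin, was at 4293 ± 384 CPM on DMSO and 267.5 ± 12.2 CPM on toyocamycin at 72 h (SD, n = 3). In between, 2 of 9 markers were past 2-fold higher at 24 h and 0 lower, against 29.7% and 27.8% of all genes. At 48 h, 2 were higher and 5 lower, against 38.1% and 29.9%. The summed level of the 11 markers was 1760 to 6940 CPM on DMSO and 532 to 5150 CPM on toyocamycin, and its part in the cathepsin result was not tested.

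The courses of the groups were then set side by side over the genes tested at both 10 and 72 h. Among cathepsins, 7 of 10 (70.0%) were called higher at 10 h and lower at 72 h, against 3 of 18 (16.7%) V-ATPase genes, 1 of 29 (3.45%) autophagy genes and 7.6% of all genes. The opposite course, lower and then higher, was that of 4 (13.8%) autophagy genes, 2 (11.1%) V-ATPase genes, 0 cathepsins and 6.7% of all genes. The difference between the 72 h and the 10 h change was then tested in the 17-library fit, where 26.6% of all genes were called lower and 25.4% higher. It was lower for 8 of those 10 cathepsins, for 5 of 18 V-ATPase genes and for 10 of 29 autophagy genes, and higher for 1, 9 and 13. For CTSC the difference was -4.23 ± 0.28 (edgeR adjusted p = 1.34e-08), for CTSB -2.48 ± 0.31 (4.58e-06) and for MAP1LC3B 1.92 ± 0.30 (6.06e-05).

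Genes of the same pathways outside the 76 were counted in fixed lists. Other lysosomal hydrolases and their cofactors were mostly higher at 10 h, with 20 of 29 higher and 2 lower (median 0.82), against 20.4% and 24.4% of all genes. At 72 h they were mixed, with 16 of 28 lower and 6 higher (median -0.74), against 41.9% and 47.0%. The thioesterase PPT1 (-3.33 ± 0.17) fell, whereas the mannosidase MAN2B1 (1.47 ± 0.13) rose. Of the cystatins, the inhibitors of cysteine cathepsins, 5 could be tested, with 2 higher at 10 h, and 1 lower and 2 higher at 72 h. CSTB, the main intracellular cystatin, fell at 72 h (-1.63 ± 0.12, edgeR adjusted p = 5.1e-09).

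Lysosomal membrane and sorting genes were lower for 13 of 19 at 72 h and higher for 6, against the same 41.9% and 47.0% of all genes. GNPTAB, the catalytic part of the enzyme that builds the mannose 6-phosphate tag of lysosomal enzymes, fell by 4.19 ± 0.21 on the log2 scale, and IGF2R, a receptor for that tag, changed by -2.93 ± 0.14. GNPTG, a further subunit of the tagging enzyme, rose (1.44 ± 0.16). V-ATPase accessory and assembly genes were lower for 7 of 13 and higher for 4 at 72 h, where 41.9% and 47.0% of all genes were. The assembly factor VMA21 (1.63 ± 0.20) and the accessory subunit ATP6AP2 (0.93 ± 0.13) rose, and TCIRG1, which encodes a further isoform of the large V0 subunit, fell (-3.05 ± 0.29). Of 25 other autophagy genes, 11 were lower and 6 higher at 10 h, and 14 lower and 9 higher at 72 h. The shares of all genes were 24.4% and 20.4%, and 41.9% and 47.0%. The receptor CALCOCO2 (-3.51 ± 0.22) and RUBCN, an inhibitor of autophagosome maturation (-2.14 ± 0.18), fell at 72 h, and NRBF2, a partner of the ATG14 complex, rose (2.24 ± 0.18).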

How the data were processed

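RNA of 17 libraries was analysed as the read counts per gene that the authors deposited, made with STAR 2.7.5a on GRCh38 per the labels. The strand setting of the counting is not given in the sources used here. A deposited table of the authors' own comparisons (log2 fold changes and p-values) was not used, nor was 1 column of counts that matched no sample. Gene symbols came from GENCODE v44 by Ensembl identifier for 19080 of 19141 genes.

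Members and gene lists were chosen with earlier results of these data known. Groups came from the labels. Counts were filtered with filterByExpr, scaled by TMM and fitted by group with edgeR 4.0.16 (limma 3.58.1, R 4.3.3; quasi-likelihood, legacy form), as 14 libraries for 2, 24, 48 and 72 h and as 17 for 10 h and for the 72 h minus 10 h difference. At 10, 24 and 48 h single libraries are assumed to vary like the replicated groups. Calls used an adjusted p under 0.1. DESeq2 1.42.0, other scalings, filters, a replicate block, a batch term and leaving out each library were the alternatives. Named members were 18 key genes and, per group at 2 and 72 h, up to 3 called rises and 3 falls by size, if the arms did not overlap and the mean log2 CPM was 2 or more. At 2 h, libraries with the same number deviated together (correlation 0.307), and the labels give that number's batch. No replicate pair agreed within sampling noise. Totals of 8735465 to 22121364 counts limit precision for genes with few counts. Code was tested on simulated data. Sequences are RefSeq promoters. Tables and figures used Python 3.11.15, pandas 2.3.3, numpy 2.4.6 and matplotlib 3.10.9.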

Additional observations from a re-analysis of the deposited data

Results flagged for a closer look

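The log2 change on toyocamycin differed between 2 h and 72 h for 29 named members, by edgeR's test of the difference itself (72 h minus 2 h). Many of them had been named for their change at 2 or 72 h, so this count partly follows from that choice. Across all members tested, 28 of 64 were called lower and 25 higher on this difference, where 38.1% and 38.0% of all genes were. No group held 4 or more libraries, so no library was tested against the others of its group.

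Among autophagy genes the difference was positive for ATG12 (3.19), MAP1LC3B (3.07), ATG9B (2.86), ATG101 (2.71), ATG16L1 (1.61), ATG14 (1.34) and GABARAPL1 (1.09). It was negative for ATG2A (-4.71), ATG9A (-3.77), ULK1 (-3.10) and BECN1 (-0.87). Of the transcription factors, MITF had a difference of 1.52 and TFEB of -1.24.

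Among V-ATPase genes, ATP6V0C had 9.46, from a few counts at 2 h, ATP6V1FNB 5.17, ATP6V1E2 1.94 and ATP6V0D1 0.51, whereas ATP6V0E2 had -4.11, ATP6V0A1 -2.27 and ATP6V1B2 -1.54. On the lysosome membrane, LAMP1 had 0.51, MCOLN1 -0.89, LAMP2 -2.01 and LAMP3 -3.26. The named cathepsins that were tested were negative, with CTSO at -4.71, CTSC at -3.33, CTSA at -3.26, CTSD at -1.78 and CTSB at -1.34. CTSO, CTSC and CTSA had been named for their falls at 72 h, so their signs partly follow from that choice. Of all 10 cathepsins tested, 8 were called lower on this difference and 1, CTSW, higher (7.13), where 38.1% and 38.0% of all genes were.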

How the results depend on the processing

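Counts of called members are given as the value under the alternative, and the cause of a change was not tested. Counts over all genes are given beside them. At 2 h, 367 of all 14491 genes were lower with a minimum fold of 1.5 and 87 with mitochondrial scaling (1220 without these changes). With the 2 h libraries alone, 738 of 11848 genes were lower, and with the replicate block 1033 of 11848 were higher. At 2 h the 4 lower calls became 1 with a minimum fold of 1.5, 0 with mitochondrial scaling, 2 with the 2 h libraries alone and 2 to 3 without single libraries, and the 0 higher calls became 6 with the replicate block. At 10 h the 21 lower calls became 11 with the minimum fold (19 to 22 without single libraries), and the 18 higher calls became 11 with the minimum fold, 10 with library size alone and 0 with mitochondrial scaling (21 to 23 without single libraries). Of all 16521 genes at 10 h, 2798 were lower and 2039 higher with the minimum fold. With library size alone 1872 were higher, and with mitochondrial scaling 503. The 18 higher calls of 10 h became 26 with the batch term, 25 with the DESeq2 test and 24 with DESeq2 size factors. Of all genes, 6239, 4709 and 4258 were higher there. At 24 h, library size alone and mitochondrial scaling gave 32 and 48 lower (19 with TMM) and 7 and 2 higher (17 with TMM). Of all 14491 genes at 24 h, 6993 and 10305 were past 2-fold lower in these settings, and 2358 and 1302 higher. At 48 h the same scalings gave 29 and 45 lower (19 with TMM), and mitochondrial scaling gave 5 higher (17 with TMM). Of all genes at 48 h, 5795 and 8560 were past 2-fold lower in these settings, and 2910 higher with mitochondrial scaling. That scaling gave 4204 of all 14491 genes higher at 72 h, and 2810 on the higher side of the difference between 72 and 2 h. At 72 h the 26 higher calls became 12 with mitochondrial scaling (26 to 27 without single libraries, and 29 to 31 lower), and the 25 higher differences between 72 and 2 h became 9 (24 to 25 without single libraries, and 28 to 30 lower).

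Signs turned at 10 h with mitochondrial scaling for MAP1LC3B (-0.006), BECN1 (-0.147), LAMP3 (-0.31), ATP6V0E2 (-0.31) and CTSC (-0.005). At 72 h they turned with mitochondrial scaling for GABARAPL1 (-0.039), TFE3 (-1.018), MITF (-0.343), LAMP1 (-0.363), ATP6V0D1 (-0.538), ATG16L1 (-0.474) and ATG14 (-0.345), with library size alone for TFE3 (-0.515), ATP6V0D1 (-0.042) and ATG16L1 (-0.002), and with DESeq2 size factors and the DESeq2 test for SQSTM1 (0.289). At 72 h the replicate numbers did not pair the libraries (correlations of -0.105, 0.043 and -0.088), and with the replicate block 8 cathepsins were lower and 1 higher there, as without it. The single library per arm at 24 and 48 h, the single DMSO library at 10 h and low counts for the silent members limit what could be seen.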

Other observations

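Genes of mTORC1 and of nutrient sensing at the lysosome, which hold autophagy in check when nutrients are plentiful, were divided at both tested later times. At 2 h, 7 of 24 were lower and 0 higher, where 8.42% and 0.518% of all genes were. At 10 h, 12 of 25 were lower and 8 higher, where 24.4% and 20.4% of all genes were. At 72 h, 11 of 24 were lower and 12 higher, where 41.9% and 47.0% of all genes were. The kinase MTOR fell at 72 h (-3.16 ± 0.17, edgeR adjusted p = 1.05e-10), as did MLST8, a subunit of the same complex (-2.69 ± 0.17). SESN1 (4.55 ± 0.17) and SESN2 (2.88 ± 0.16), stress-induced inhibitors of mTORC1, rose, and so did AKT1S1, another inhibitor (2.96 ± 0.17).

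The DMSO level of several members moved over the course without any drug. TFEB ranged from 8.58 to 23.9 CPM over the 8 DMSO libraries and CTSO from 4.19 to 16.1 CPM, whereas CTSC stayed between 39.6 and 51.9 CPM.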
